A study of Xenopus tropicalis with 31 samples.

Results

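The 792 regions described here carried the repressive mark H3K27me3 in the endoderm list of early gastrulae, were absent from the ectoderm H3K27me3 list, and lay on a stretch with the active mark H3K27ac in ectoderm. They were chosen by these 3 lists alone, as endoderm H3K27me3 regions that shared no base with an ectoderm H3K27me3 region and at least 1 bp with an ectoderm H3K27ac region. They made up 2.91% of the 27207 endoderm H3K27me3 regions and 17.6% of the 4508 that were found in endoderm only. The data are chromatin immunoprecipitation followed by sequencing (ChIP-seq) from *Xenopus tropicalis*, in 31 samples of 19 groups, for which 16 lists of enriched regions were used, each combined over the samples of its group. Ep300, H3K27ac and H3K27me3 were measured in ectoderm (animal) and endoderm (vegetal) tissue dissected at stage 10.5, the early gastrula, and the transcription factors Foxi2 and Sox3 in whole embryos at stage 8 (mid blastula), stage 9 (late blastula) and stage 10.5. Ep300 was measured in tissue of embryos injected with translation-blocking morpholinos against foxi2 and sox3 (FSMO), in wild-type (WT) tissue of the same experiment, and in WT tissue of a first experiment. All other lists came from WT embryos.

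These groups limit what can be said. No list from embryos injected with a control morpholino was used here, so injection and loss of the factors cannot be told apart. H3K27ac and the first Ep300 experiment had 1 library a group, and the H3K27me3 lists were called on pooled replicates, so no value below has a replicate error and no test between samples was made. Shares are given with Wilson 95% intervals, which cover counting error only, and the read depth behind each list is unknown. The extraction text given for every sample names an antibody against VegT, and the proteins named in the titles were followed. Per the track lines of the files, the ectoderm H3K27me3 regions came from a scaled library and the endoderm regions from an unscaled one, so the absence of a region from the ectoderm list and a lower power to call it there cannot be told apart.

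H3K27me3 is laid down by the Polycomb repressive complex PRC2 and is found over silent developmental genes. H3K27ac is laid down on the same lysine by acetyltransferases such as Ep300, at active enhancers and promoters, so a single histone tail cannot carry both. A dissected tissue holds many cells, and both marks can be found at a place when they lie on different cells, alleles or nucleosomes. Foxi2 and Sox3 are supplied by the egg: Foxi2 is a forkhead factor of the prospective ectoderm and Sox3 an HMG-box factor of the SoxB1 family, known for its roles in early ectoderm and neural progenitors.

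The values used by the rule are a description. Ectoderm H3K27ac covered the whole length of 572 of the 792 members (72.2%), and the smallest overlaps inside the rule were 2, 5 and 15 bp. The nearest regions left out by this limit lay 6, 14 and 30 bp from an ectoderm H3K27ac region. The acetylated regions had been stitched across gaps of up to 12 kb, and the 766 that touched a member had a median width of 16159 bp against 1759 bp over all 16257, so that a covered member may lie in a gap between acetylated peaks. An unstitched single acetylated peak was touched by 177 members. The nearest ectoderm H3K27me3 region was at a median of 18029 bp, with 26 members within 1 kb and 83 within 5 kb. The closest members lay 1, 2 and 19 bp from one, while the acetylated regions left out by the smallest overlaps shared 41, 62 and 72 bp with one.

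For most members the lists went against acetylation in ectoderm alone. Of the 792 members, 511 also overlapped an H3K27ac region of endoderm (64.5%, 61.1 to 67.8), against 19.6% of all endoderm H3K27me3 regions. Among the 3716 endoderm-only regions without ectoderm H3K27ac the share was 12.7% (11.7 to 13.8), and among the 4719 regions with H3K27me3 in both tissues and ectoderm H3K27ac it was 62.4% (61.1 to 63.8), an interval that overlapped that of the members. Those shared regions were far wider, and at equal width below 10 kb the members had the higher share, with intervals apart. Under 1 kb it was 60.8% (56.7 to 64.7) against 41.7% (38.8 to 44.7). From 1 to 3 kb it was 67.1% (56.1 to 76.4) against 45.1% (41.1 to 49.1), and from 3 to 10 kb 78.75% (68.6 to 86.3) against 61.8% (58.5 to 64.9). The endoderm H3K27ac regions, from 1 library, were stitched as well, and an unstitched endoderm peak was touched by 98 members (12.4%), so that an overlap may again lie in a gap between acetylated peaks. Acetylation in ectoderm but not in endoderm was found in 281 members, and they are given on their own below. Ectoderm super-enhancers, the top-ranked stitched H3K27ac regions, held 228 members (28.8%, 25.7 to 32.0), against 6.41% of all endoderm H3K27me3 regions and 32.1% (30.8 to 33.5) of the acetylated regions shared by the tissues, a contrast that uses the acetylation of the rule.

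Most members were narrow. Their median width was 431 bp (quartiles 278 and 1226 bp, range 200 to 37894 bp), against 1140 bp over all endoderm H3K27me3 regions, 361 bp over the endoderm-only regions without ectoderm H3K27ac and 8979 bp over the acetylated regions shared by the tissues. A width under 1 kb was found for 576 members (72.7%), against 46.0% of all regions. A width of 1 to 3 kb was found for 79 members, of 3 to 10 kb for 80 and of over 10 kb for 57. At 200 bp, the shortest width in the list, stood 24 members. Together they covered 1.67 of the 155.9 Mb under endoderm H3K27me3. A member was a single H3K27me3 peak in 606 cases (76.5%), against 61.2% of all regions, and the median rank by H3K27me3 signal was 19868 of 27207, where rank 1 is the strongest. A single member lay above the cutoff that marks the 127 strongest regions. At the median, members were thus weaker and narrower than the endoderm H3K27me3 regions as a whole, and wider than the other endoderm-only regions. The width of a region raises its chance of any overlap, and both limits of the rule are overlaps. These width contrasts thus describe the selected regions and cannot be told apart from the rule.

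**Figure D1:**
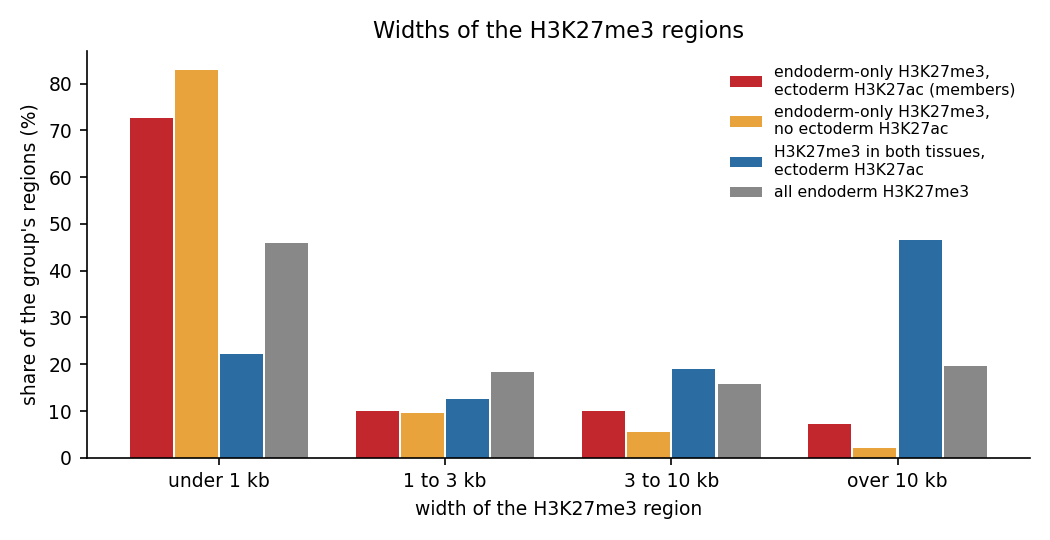
Share of regions (%, y axis) in each of 4 width classes (x axis) for the 792 members, the 3716 endoderm-only regions without ectoderm H3K27ac, the 4719 acetylated regions with H3K27me3 in both tissues and all 27207 endoderm H3K27me3 regions. Of the members 72.7% were under 1 kb, against 46.0% of all regions.

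Ep300 was found in few members, and in more of them in endoderm than in ectoderm. An ectoderm Ep300 peak was present in 20 members in FSMO tissue (2.53%, 1.64 to 3.87) and in 25 in WT tissue (3.16%, 2.15 to 4.62), against 2.78% and 2.89% of all endoderm H3K27me3 regions. An endoderm Ep300 peak was present in 100 members in FSMO tissue (12.6%, 10.5 to 15.1) and in 99 in WT tissue (12.5%, 10.4 to 15.0), against 12.4% and 11.9% of all regions. None of these 4 shares stood apart from the background, and the intervals of FSMO and WT tissue overlapped in both germ layers. The WT lists are not of equal length, with 5552 ectoderm and 11597 endoderm peaks. As a share of each list, 0.504% of the ectoderm peaks and 1.02% of the endoderm peaks touched a member. The first experiment gave 31 members with ectoderm Ep300 (3.91%) and 99 with endoderm Ep300 (12.5%), against 3.85% and 11.2% of all regions.

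Both comparison groups differed from the members in ectoderm Ep300. The endoderm-only regions without ectoderm H3K27ac had WT ectoderm Ep300 in 0.135% (0.0575 to 0.315), and the acetylated regions shared by the tissues in 13.9% (13.0 to 14.9), with intervals that do not overlap that of the members. The shared regions were far wider, and within each of the 4 width classes their interval overlapped that of the members. The members still had the lower share in each class. Under 1 kb the intervals barely met, with 1.39% (0.705 to 2.72) of members against 3.64% (2.67 to 4.96). From 1 to 3 kb the shares were 2.53% and 6.93%, and from 3 to 10 kb 10.0% (5.15 to 18.5) and 15.6% (13.4 to 18.1). Whether width accounts for the difference was not tested. For WT endoderm Ep300 the shares of the comparison groups, in the order above, were 11.9% (10.9 to 12.9) and 24.0% (22.8 to 25.2), and the first of these overlapped the members' interval. In each width class under 10 kb, however, the members had the higher share than the shared regions. Under 1 kb the intervals overlapped, with 5.03% (3.53 to 7.14) of members against 3.36% (2.42 to 4.63). They did not from 1 to 3 kb, with 31.6% (22.4 to 42.5) against 17.9% (15.0 to 21.2). From 3 to 10 kb they did not either, with 37.5% (27.7 to 48.5) against 22.8% (20.1 to 25.6). In WT tissue, Ep300 was found in both germ layers in 17 members, in ectoderm only in 8, in endoderm only in 82 and in neither in 685. The median width was 4965 bp for the members with Ep300 in both tissues, 2516 bp for those with endoderm Ep300 only and 387 bp for those with neither. The presence of Ep300 thus went with width, and a wider region has more room for a peak.

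**Figure D2:**
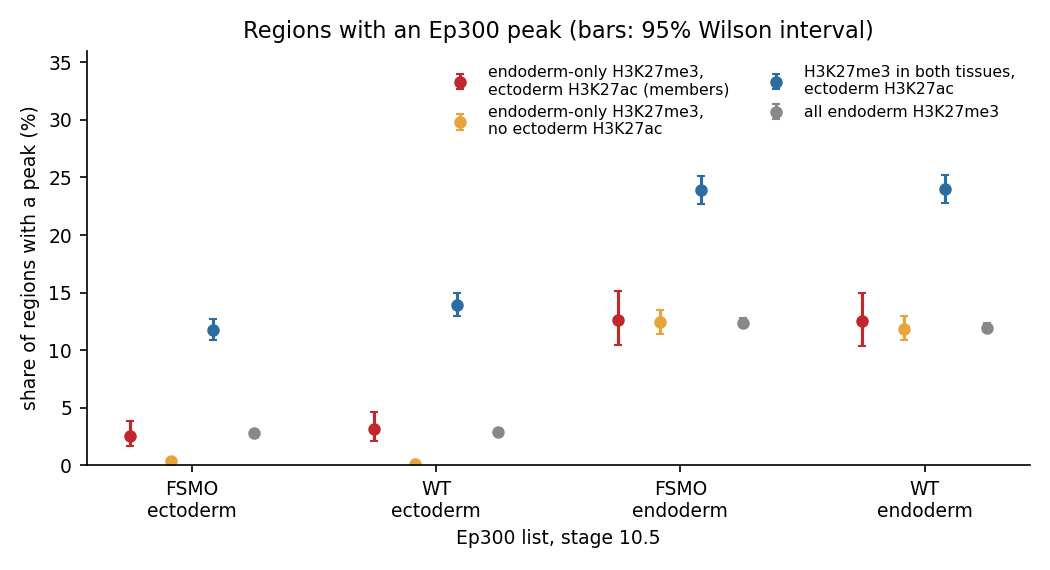
Share of regions with at least 1 Ep300 peak (%, y axis) for each Ep300 list of the second experiment (x axis), by group of regions, with 95% Wilson intervals that cover counting error only. Members stood at 2.53% and 3.16% for FSMO and WT ectoderm and at 12.6% and 12.5% for FSMO and WT endoderm.

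Under 1 kb and from 3 to 10 kb, members had Ep300 more often than all regions of the same width. Under 1 kb, WT ectoderm Ep300 was found in 8 of 576 members (1.39%, 0.705 to 2.72) against 0.432% (0.331 to 0.563) of 12514 regions, and WT endoderm Ep300 in 29 members (5.03%, 3.53 to 7.14) against 2.45% (2.19 to 2.73). From 3 to 10 kb, WT ectoderm Ep300 was found in 8 of 80 members (10.0%, 5.15 to 18.5) against 3.93% (3.39 to 4.55), and WT endoderm Ep300 in 30 (37.5%, 27.7 to 48.5) against 17.2% (16.1 to 18.3). The intervals did not overlap in these classes. Over 10 kb they did, with 7 of 57 members (12.3%, 6.08 to 23.2) against 9.45% (8.70 to 10.3) in WT ectoderm and 15 members (26.3%, 16.6 to 39.0) against 28.6% (27.4 to 29.8) in WT endoderm. The endoderm-only regions without ectoderm H3K27ac had WT endoderm Ep300 in 5.13% (4.41 to 5.97) under 1 kb and 40.6% (34.1 to 47.5) from 3 to 10 kb, with intervals that overlapped those of the members. From 1 to 3 kb, WT endoderm Ep300 was found in 25 of 79 members (31.6%, 22.4 to 42.5), against 13.3% (12.3 to 14.2) of all regions and 46.6% (41.5 to 51.8) of the endoderm-only regions without ectoderm H3K27ac. Per Mb of region, members held 16.7 WT ectoderm and 70.5 WT endoderm Ep300 peaks, against 6.75 and 28.2 over all regions and 1.24 and 126.7 over the endoderm-only regions without ectoderm H3K27ac. A peak that shared 1 bp with a region was counted in full, which raises the count per Mb most in narrow regions. These densities are therefore not matched for width.

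The split by endoderm H3K27ac separated the members in endoderm Ep300. WT endoderm Ep300 was found in 13 of the 281 members without endoderm H3K27ac (4.63%, 2.72 to 7.75), against 86 of the 511 with it (16.8%, 13.8 to 20.3). WT ectoderm Ep300 was found in 6 (2.14%, 0.982 to 4.58) and 19 (3.72%, 2.39 to 5.73), with intervals that overlapped. The members without endoderm H3K27ac were narrower, at a median of 375 bp against 480 bp.

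The 28 WT ectoderm Ep300 peaks of the members can be read one by one. They lay in 25 members, and 14 of them overlapped an FSMO ectoderm peak (50.0%, 32.6 to 67.4), against 44.1% of the whole WT ectoderm list and 54.0% (51.0 to 57.0) of the 1053 peaks in any endoderm H3K27me3 region. Of the 118 WT endoderm peaks of the members, 112 overlapped an FSMO endoderm peak (94.9%, 89.4 to 97.6), against 83.5% of the whole WT endoderm list and 87.8% (86.8 to 88.8) of those in any endoderm H3K27me3 region. The interval for the ectoderm peaks of the members held both of these backgrounds, while the endoderm peaks were retained more often than either of theirs. The WT endoderm peaks in members also had a higher median fold enrichment over input, 12.7 against 9.15 over the list. Retention at equal peak strength was not tested. The FSMO ectoderm list was also the shorter, with 3593 peaks.

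Most of these ectoderm peaks lay on Foxi2 and Sox3 peaks. At stage 10.5, 18 of the 28 overlapped peaks of both factors (64.3%, 45.8 to 79.3), against 52.4% of the whole WT ectoderm list and 53.2% (50.2 to 56.2) of the peaks in any endoderm H3K27me3 region, both within the interval of the members. Of the others, 2 overlapped a Foxi2 peak alone, 3 a Sox3 peak alone and 5 neither. Among the 14 peaks retained in FSMO ectoderm, 10 overlapped both factors, 1 Foxi2 alone and 3 neither. Among the 14 not retained, 8 overlapped both, 1 Foxi2 alone, 3 Sox3 alone and 2 neither. A Foxi2 peak was already there at stage 8 for 17 of the 28 and at stage 9 for 16, and a Sox3 peak for 3 and 13. A WT endoderm Ep300 peak overlapped 18 of the 28, namely 11 of the retained and 7 of the others. The factors were profiled in whole embryos, so the germ layer in which they were bound cannot be told.

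**Figure D3:**
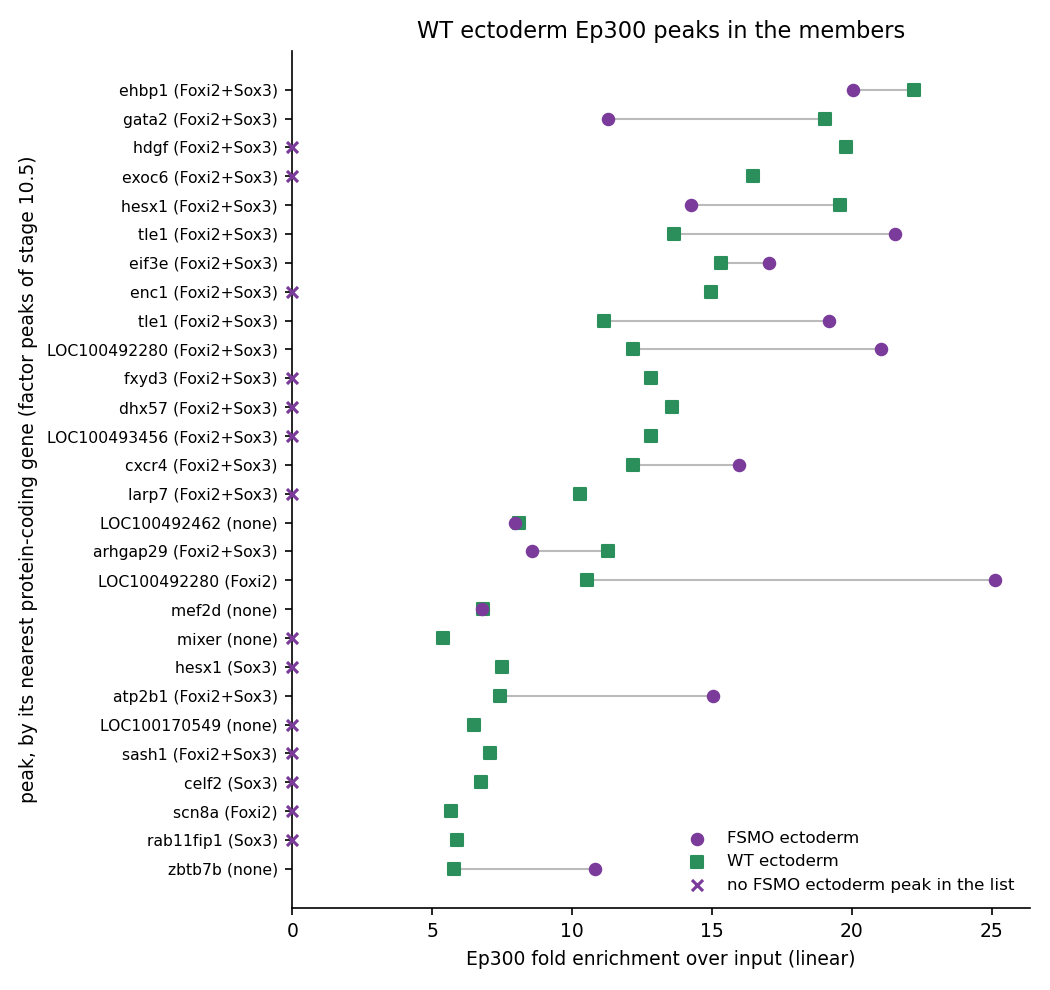
Ep300 fold enrichment over input (x axis, linear) of the 28 WT ectoderm peaks in members (squares), with the strongest overlapping FSMO ectoderm peak (circles, joined by a line) or a cross at 0 where the FSMO list held none; rows run from the highest to the lowest WT −log10 p and carry the nearest protein-coding gene and the stage 10.5 factors that overlap the peak. Of the 28 peaks, 14 had an FSMO peak, at 0.592 to 2.38 times the WT fold enrichment.

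Where a peak was retained, its fold enrichment, the ratio of ChIP over input given by the peak caller, was not always lower in FSMO ectoderm. The FSMO value divided by the WT value ran from 0.592 to 2.38 with a median of 1.21, and was below 1 for 6 of the 14. Over the 2451 retained peaks of the whole list the median was 1.06, and 43.0% were below 1. The retained peaks had a median fold enrichment of 15.5 in FSMO ectoderm and 11.7 in WT ectoderm, and those not retained a median of 8.89 in WT ectoderm. These ratios compare lists whose depth is unknown.

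The strongest retained peak, by −log10 p, lay within *ehbp1*, which encodes an EH-domain binding protein of membrane traffic. It spanned chr5:32964372-32965714 (assembly UCB_Xtro_10.0, as all coordinates here), with a fold enrichment of 20.0 in FSMO ectoderm against 22.2 in WT ectoderm. Its member was 2496 bp wide, lay in an ectoderm super-enhancer and had no endoderm H3K27ac, yet the same stretch carried endoderm Ep300 at 12.8 in FSMO and 13.9 in WT tissue. It also held the Foxi2 peak of stage 10.5 with the highest −log10 p of the members (fold enrichment 39.7) and a Sox3 peak at 30.8.

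The next retained peak, chr4:135364617-135365551, had *gata2* as its nearest protein-coding gene, at 37794 bp. GATA2 is a zinc-finger factor of the ventral ectoderm and of blood. The peak stood at 11.3 in FSMO ectoderm against 19.1 in WT ectoderm, the lowest ratio of the 14, and at 24.8 in FSMO endoderm against 23.3 in WT endoderm. Its member was 11924 bp wide, and the ectoderm H3K27ac region that covered it ranked 24 of 16257. The third, chr4:148686744-148687641, lay at *hesx1*, a homeobox gene of the anterior neural plate, with 14.2 in FSMO ectoderm against 19.6 in WT ectoderm. A second WT ectoderm peak of the *hesx1* member, with a fold enrichment of 7.49 and a Sox3 peak alone, had no FSMO ectoderm peak.

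The 3 strongest peaks that were not retained had WT fold enrichments of 15.0 to 19.8, against 19.1 to 22.2 for the 3 strongest retained. The first, chr8:131396125-131396966, had a fold enrichment of 19.8 in WT ectoderm, no peak in FSMO ectoderm and none in endoderm of either kind. It lay 4698 bp from *hdgf*, a growth factor gene, on peaks of Foxi2 (39.3) and Sox3 (34.6) of stage 10.5. The second, chr7:25428082-25429259, lay within *exoc6*, which encodes a subunit of the exocyst, with 16.5 in WT ectoderm and with endoderm Ep300 at 16.6 in FSMO and 17.7 in WT tissue. The third, chr1:183850688-183851510, lay 102559 bp from *enc1*, with 15.0 in WT ectoderm and endoderm Ep300 at 19.1 in FSMO and 19.2 in WT tissue. At *exoc6* and *enc1*, the ectoderm peak was missing from the FSMO list while the endoderm peak at the same place was listed in both.

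Besides the *hesx1* member, 2 others held more than 1 WT ectoderm Ep300 peak, and there the FSMO values were the higher. The member nearest to *tle1*, a Groucho corepressor gene at 92718 bp, spanned chr1:133325950-133336735 and held 2 such peaks, at 21.6 and 19.2 in FSMO ectoderm against 13.7 and 11.1 in WT ectoderm. The member nearest to LOC100492280, chr7:40765249-40769600, held 2, at 21.0 and 25.1 in FSMO ectoderm against 12.2 and 10.5 in WT ectoderm. In endoderm the peaks at LOC100492280 stood at 23.8 and 27 in FSMO tissue and at 23.8 and 25.4 in WT tissue. All of these lay on Foxi2 peaks of stage 10.5, with fold enrichments of 22.0 to 43.1. The remaining ectoderm peaks included one near *cxcr4*, a chemokine receptor gene at 10785 bp, with 16.0 in FSMO ectoderm against 12.2 in WT ectoderm, and one at *fxyd3*, which encodes a regulator of the sodium pump, with 12.8 in WT ectoderm and no FSMO ectoderm peak.

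In the second experiment, the endoderm Ep300 peaks in members were stronger than the list as a whole. Their median fold enrichment was 12.8 in FSMO and 12.7 in WT tissue, against 9.58 and 9.15 over the full lists. For ectoderm the medians were 11.0 in FSMO and 11.2 in WT tissue, against 9.40 and 8.76. In the first experiment the endoderm medians were close, at 3.98 in members against 3.78 over the list. The ectoderm peaks in members were weaker there, at 3.11 against 3.54. By −log10 p, the strongest WT endoderm peaks without a WT ectoderm peak, named here after their values were seen, lay at LOC100498108 (30.0 in FSMO, 28.9 in WT endoderm), 571 bp from *cmtm8* (24.0 and 23.2) and at *tmprss4*, a membrane serine protease gene (23.0 and 23.4). Those 3 members also carried endoderm H3K27ac.

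Foxi2 was found in fewer members at stages 9 and 10.5 than at stage 8, and Sox3 in more at stage 10.5 than before. A Foxi2 peak was present in 53 members at stage 8 (6.69%, 5.15 to 8.65), 27 at stage 9 (3.41%, 2.35 to 4.91) and 29 at stage 10.5 (3.66%, 2.56 to 5.21), against 8.51%, 4.88% and 3.38% of all endoderm H3K27me3 regions. A Sox3 peak was present in 19 members at stage 8 (2.4%, 1.54 to 3.72), 25 at stage 9 (3.16%, 2.15 to 4.62) and 61 at stage 10.5 (7.70%, 6.04 to 9.77), against 14.2%, 4.33% and 10.8% of all regions. Before matching for width, Sox3 was below the background at stages 8 and 10.5 and Foxi2 did not stand apart from it at any stage. Under 1 kb, however, Foxi2 stood above all regions of that width at stages 8 and 9. The shares were 3.82% (2.54 to 5.72) of members against 1.54% (1.34 to 1.77), and 2.26% (1.32 to 3.82) against 0.855% (0.708 to 1.03). At stage 10.5 it stood above them under 1 kb, as given below, and from 3 to 10 kb, at 11.25% (6.03 to 20.0) against 4.33% (3.76 to 4.97). In the other width classes the Foxi2 intervals overlapped. Within each of the 4 width classes, the Sox3 intervals of members and all regions overlapped at stage 10.5 and did not overlap at stage 8. Under 1 kb, Sox3 of stage 8 was found in 0.521% (0.177 to 1.52) of members against 4.27% (3.93 to 4.64) of all regions. The lists differ in length, and as a share of each list the peaks in members came to 0.456%, 0.435% and 0.530% for Foxi2 and to 0.618%, 0.591% and 0.464% for Sox3. A single member, described below, held 14 of the Sox3 peaks of stage 8, and without it the share at that stage was 0.378%, below that of stage 10.5. The Foxi2 intervals of stages 8 and 10.5 overlapped, and the Sox3 intervals of these stages did not. The higher Sox3 count went with a longer list, of 14648 peaks at stage 10.5 against 5827 at stage 8.

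**Figure D4:**
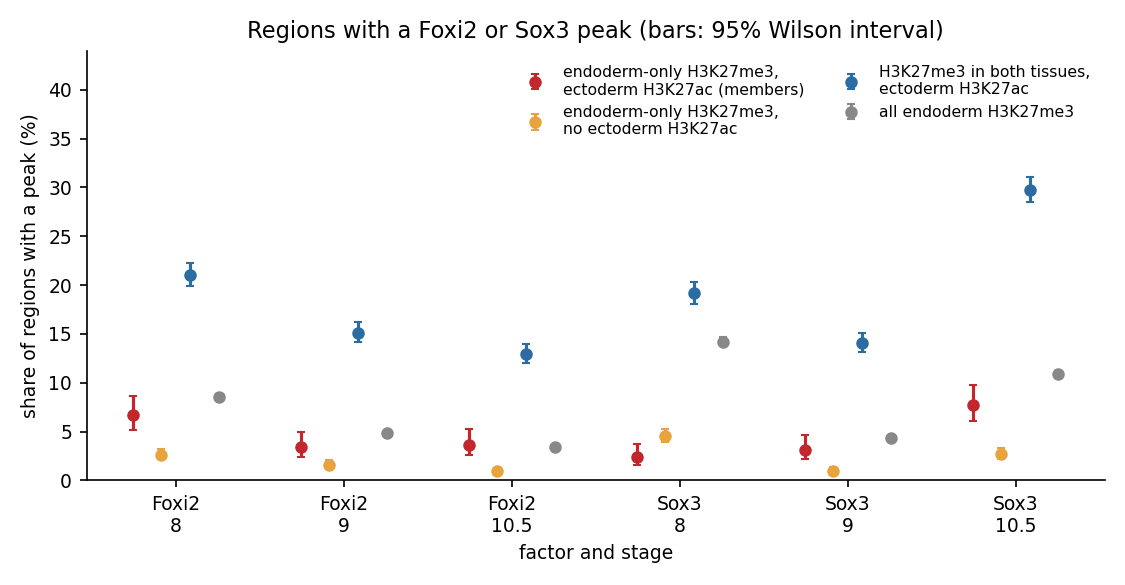
Share of regions with at least 1 Foxi2 or Sox3 peak (%, y axis) at each stage (x axis), by group of regions, with 95% Wilson intervals that cover counting error only. Sox3 stood at 2.4% of members at stage 8 and 7.70% at stage 10.5, and Foxi2 at 6.69% and 3.66%.

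Unmatched for width, the members lay between their comparison groups for both factors at the gastrula stage. At stage 10.5, Foxi2 was found in 0.942% (0.678 to 1.31) of the endoderm-only regions without ectoderm H3K27ac and in 13.0% (12 to 14.0) of the acetylated regions shared by the tissues, and Sox3 in 2.69% (2.22 to 3.26) and 29.8% (28.5 to 31.1). None of these intervals overlapped that of the members. Within each of the 4 width classes, however, the Foxi2 interval of the shared regions overlapped that of the members, as in 12.9% (10.9 to 15.3) from 3 to 10 kb, while for Sox3 it overlapped only from 3 to 10 kb, at 30.6% (27.7 to 33.7). The members still had the lower Foxi2 share in each class, as in 10.5% (4.91 to 21.1) against 19.6% (18.0 to 21.3) over 10 kb. At stage 8 the order differed for Sox3, which was found in 4.57% (3.95 to 5.30) of the endoderm-only regions without ectoderm H3K27ac, above the members. Under 1 kb, Foxi2 of stage 10.5 was found in 11 members (1.91%, 1.07 to 3.39) against 0.543% (0.429 to 0.688) of all regions of that width, and Sox3 in 21 (3.65%, 2.4 to 5.51) against 2.37% (2.12 to 2.66). The Sox3 intervals overlapped and the Foxi2 intervals did not.

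Foxi2 rarely came without Sox3 at stage 10.5, in members as in the endoderm H3K27me3 regions as a whole. A Foxi2 peak on a Sox3 peak, called co-bound, was found in 4 members at stage 8 (0.505%), 17 at stage 9 (2.15%) and 27 at stage 10.5 (3.41%, 2.35 to 4.91), against 2.51%, 2.58% and 2.84% of all regions. Of the regions with Foxi2 at stage 10.5, 27 of 29 members were co-bound, against 773 of 920 over all regions and 541 of 612 acetylated regions shared by the tissues. Of the 29 members with Foxi2 at stage 10.5, 18 had WT ectoderm Ep300 and 25 had WT endoderm Ep300. Of the 61 with Sox3, 20 had WT ectoderm Ep300 and 37 WT endoderm Ep300. Over all endoderm H3K27me3 regions, WT endoderm Ep300 was also the more frequent, at 11.9% against 2.89% for WT ectoderm Ep300. The share over all factor-bound regions was not computed, so the order in factor-bound members is not read as a trait of theirs. Over the 3 stages, 62 members had a Foxi2 peak, 25 of them at stage 8 only and 18 at all 3 stages. A Sox3 peak was found in 77 members, 35 of them at stage 10.5 only, 21 at stages 9 and 10.5, 13 at stage 8 only and 1 at all stages. Neither factor was found at any stage in 687 members, whose median width was 394 bp.

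All but one of the strongest factor peaks of stage 10.5, by −log10 p, lay in members with the WT ectoderm Ep300 peaks described above, the exception being a Sox3 peak at *ephb1*. For Foxi2 they were those of the *ehbp1*, *exoc6* and *hdgf* members, with fold enrichments of 39.7, 35.3 and 39.3. For Sox3 they were at *fxyd3*, at *ephb1*, which encodes an ephrin receptor, and at *exoc6*, with 43.4, 35.3 and 29.0. The *ephb1* member was 534 bp wide, lay in an ectoderm super-enhancer and held no Foxi2 or Ep300 peak of the second experiment. Its Sox3 peak spanned chr5:130539248-130540913, longer than the member itself.

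The widest members differed in the peaks they held. The widest, chr9:37751511-37789404 with 37894 bp, had ectoderm H3K27ac over 9285 bp and no Foxi2, Sox3 or second-experiment Ep300 peak; *grin2a*, a glutamate receptor gene, was its nearest gene at 43414 bp. The member of best H3K27me3 rank (79), chr9:48646274-48681597, lay in an ectoderm super-enhancer of rank 198, 8171 bp from *trpm2*, a cation channel gene. It held 14 of the 36 Sox3 peaks of stage 8 in members and 20 of the 145 first-experiment endoderm Ep300 peaks, but no Ep300 peak of the second experiment. Without it, 22 Sox3 peaks of stage 8 in 18 members were left. The other widest and best-ranked members were chr6:63253985-63280599 (rank 580, with 241 bp of ectoderm H3K27ac), chr5:82188103-82212766 (rank 388, acetylated throughout), chr5:8025857-8049584 at *mixer* and chr10:13497877-13520123 (rank 576), which covered 33 genes annotated as tRNA. Repeated gene copies share reads, so the last is uncertain. A tRNA gene was found in 2 members in all. At the other end, the 3 best-ranked members of 200 bp were chr1:68997081-68997280 near *larp7*, with a WT ectoderm Ep300 peak that shared 6 bp with it, chr10:2655448-2655647 in *ppp4r1l* and chr9:1060222-1060421 near LOC100487648, the last 2 without any peak.

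Over all 21749 protein-coding genes of the table, 414 overlapped a member (1.9%) and 10202 an endoderm H3K27me3 region of any kind (46.9%), and the gene lists are read beside these shares. Of 26 epidermal and non-neural ectoderm genes, 3 overlapped a member, against 16 that overlapped any endoderm H3K27me3 region and 23 that overlapped ectoderm H3K27ac. They were *klf5*, a Krüppel-like factor gene, *krt7*, a keratin gene, and *bmp7.1*, which encodes a BMP ligand. The member in *klf5*, chr2:127159953-127160805, was 853 bp wide, ranked 15179 and lay in an ectoderm super-enhancer of rank 93 without endoderm H3K27ac. The member in *krt7*, chr2:148152257-148152919, was 663 bp wide with a super-enhancer of rank 148, and that in *bmp7.1*, chr10:5575175-5575694, which also overlapped *spo11*, was 520 bp wide with one of rank 550; both had endoderm H3K27ac. None of these 3 members held a Foxi2, Sox3 or Ep300 peak of any list. Outside its member, *bmp7.1* also overlapped an ectoderm H3K27me3 region, while *klf5* and *krt7* overlapped none. Members also lay within 20 kb of *krt70*, a keratin gene, and of *grhl2*, which encodes a regulator of the epidermis, in ectoderm super-enhancers and without any such peak. The *grhl2* gene itself overlapped an ectoderm H3K27me3 region, and *krt70* none.

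Of 37 neural plate and neural genes, 35 were in the gene table and *hesx1* alone overlapped a member, while 27 overlapped any endoderm H3K27me3 region. Its member, chr4:148684122-148696465, was 12344 bp wide, ranked 4414 and was acetylated in ectoderm over 5893 bp. Of 29 endoderm and organizer genes, 27 were in the table and *mixer*, a Mix-family homeobox gene of the endoderm, alone overlapped a member, while 21 overlapped any endoderm H3K27me3 region. That member was 23728 bp wide, ranked 1297 and was acetylated in ectoderm over only 580 bp. It held 3 endoderm Ep300 peaks in FSMO and 4 in WT tissue, and 1 ectoderm peak in WT tissue with a fold enrichment of 5.39 and none in FSMO tissue. Endoderm Ep300 peaks thus outnumbered ectoderm ones at *mixer*, as in the WT lists, with 11597 endoderm and 5552 ectoderm peaks. The *mixer* member also carried endoderm H3K27ac, 1 Foxi2 peak of stage 8 and 2 Sox3 peaks of stage 9. At stage 10.5 it held 1 Foxi2 peak, which was co-bound, and 2 Sox3 peaks.

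Of 31 genes for secreted BMP, Wnt, FGF and Notch ligands, *bmp7.1*, *wnt6* and *wnt10a* overlapped a member, while 20 overlapped any endoderm H3K27me3 region. Each of these named genes also overlapped an ectoderm H3K27me3 region outside its member, so the gene as a whole was not free of the mark in ectoderm. Both *wnt6* and *wnt10a* overlapped other endoderm H3K27me3 regions as well. The *wnt6* member, chr9:82653322-82653619, was 298 bp wide. It held 1 FSMO endoderm Ep300 peak, no other Ep300 peak of the second experiment and no Foxi2 or Sox3 peak. The *wnt10a* member, chr9:82707774-82708295, was 522 bp wide and held no Foxi2, Sox3 or second-experiment Ep300 peak. No member overlapped a gene of the placode and neural crest list (18 of 19 in the table), of the mesoderm list (26), of the broadly expressed list (15) or any of 36 Hox genes, all 36 of which overlapped endoderm H3K27me3. Within 20 kb of a member stood *sox9* of the placode and neural crest list and *szl* of the mesoderm list. The *sox9* gene itself overlapped an ectoderm H3K27me3 region, and *szl* none.

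Gene ends were rare in members. A protein-coding gene overlapped 402 members (50.8%, 47.3 to 54.2), against 53.2% of all endoderm H3K27me3 regions on the 10 chromosomes, and an end of such a gene, at either side because the gene table gives no strand, lay in 52 (6.57%, 5.04 to 8.51), against 12.1%. Among members over 10 kb it lay in 25 of 57 (43.9%, 31.8 to 56.7), against 42.5% of all regions of that width, and under 1 kb in 4 of 576 (0.694%, 0.270 to 1.77), against 0.511%. The lower share over all members thus went with their small width. All 792 lay on the 10 chromosomes, from 54 on chromosome 10 to 112 on chromosome 8, which is 5.52% and 4.09% of the endoderm H3K27me3 regions there, against 2.17% on chromosome 2.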

How the data were processed

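Lists of enriched regions, not reads, were analysed. The 16 lists cover 16 of the 19 groups, and the 3 groups of input DNA enter only through the peak calls. Per the study's methods, Bowtie 2 (Bowtie2 2.2.7 in the submitters' processing notes) placed the reads on version 10.0 of the genome; after removal of duplicates, MACS2 compared each ChIP with its input, and the irreproducible discovery rate combined the replicates of Foxi2, Sox3 and Ep300. The deposited lists give the authors' fold enrichment (a ratio of ChIP over input), −log10 p, an irreproducibility score, which was not used in a result, and the summit offset. The authors stitched H3K27ac and H3K27me3 peaks with ROSE, across 12 kb, and ranked them by signal; the deposited signal column of the endoderm H3K27ac table is headed with the animal-pole library and was not used. H3K27me3 peaks were called on pooled replicates.

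Regions overlapped when they shared 1 bp. Shares have Wilson 95% intervals for counting error only, and no tests or p-values were made, since no list holds values per replicate. Shares are said to stand apart, or one to be above or below another, where their intervals do not overlap. "All" regions include the members. Gene positions came from the RefSeq table of UCB_Xtro_10.0, which gives no strand, so gene ends at either side replaced the gene starts that had been planned. Regions named singly are the 5 widest, the 3 narrowest, the 5 of best H3K27me3 rank, the 5 with most WT ectoderm Ep300 peaks, the 3 strongest retained and 3 strongest not retained of these peaks, the 3 strongest Foxi2 and Sox3 peaks of stage 10.5, and those on a gene of 8 gene lists; others are named as chosen after their values were seen or as further rows of the plot of the 28 peaks. The members and lists were chosen with earlier results of these data known. Overlap functions were tested on simulated intervals. Python 3 with pandas and scipy was used. Sequences were not analysed here.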

Additional observations from a re-analysis of the deposited data

How the results depend on the processing

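No paired analysis was possible because each list combines the replicates of its group or comes from 1 library. For the same reason no replicate could be left out. Over 120 recomputed values, 52 stayed within the interval of the reported value (1.5 times for the number of members) and 68 moved. The cause was not tested beyond what each setting removes. Some of the 52 could not move. The settings by summit and by stronger peaks keep the same members, so their number, width, endoderm H3K27ac and gene ends were fixed. Requiring no ectoderm H3K27me3 region within 5 kb (709 members) or taking the first Ep300 experiment moved none. Requiring 500 bp of ectoderm H3K27ac left 279 members of median width 1705 bp, with WT ectoderm Ep300 in 6.81%, WT endoderm Ep300 in 27.2%, Foxi2 of stage 10.5 in 8.24%, Sox3 of stage 10.5 in 16.1%, co-binding in 7.53%, endoderm H3K27ac in 76.3% and a gene end in 15.8%. The better-ranked H3K27me3 regions left 192 members of 5559 bp, with 8.85%, 33.3%, 9.38%, 19.8%, 9.38%, 76.6% and 25% for the same measures. Members without endoderm H3K27ac numbered 281, of 375 bp, with WT ectoderm Ep300 in 2.14%, WT endoderm Ep300 in 4.63%, Foxi2 in 1.78%, Sox3 in 4.98%, co-binding in 1.42% and a gene end in 3.56%. Of their 6 WT ectoderm Ep300 peaks, 1 was retained in FSMO ectoderm (16.7%, 3.01 to 56.4). That interval held the 50.0% of all members. Counting a peak only by its summit gave WT endoderm Ep300 in 9.09%, Foxi2 in 2.4%, Sox3 in 5.30% and co-binding in 2.27%. The stronger part of each peak list, above its median −log10 p, gave WT ectoderm Ep300 in 2.02%, WT endoderm Ep300 in 9.60%, Sox3 in 4.67% and co-binding in 2.15%. A setting added after seeing the data, only members on an unstitched ectoderm H3K27ac peak, left 177 of 493 bp, with WT ectoderm Ep300 in 1.69%, WT endoderm Ep300 in 7.91%, Foxi2 in 0.565%, co-binding in 0.565% and a gene end in 10.2%. WT endoderm Ep300 was found in more members than WT ectoderm Ep300 under every setting. The order was the same over all endoderm H3K27me3 regions, at 11.9% against 2.89%, and the WT endoderm list was the longer. It is thus not read as a trait of the members.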

Other observations

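The reverse rule, ectoderm H3K27me3 regions without endoderm H3K27me3 but with endoderm H3K27ac, gave 570 regions of a median width of 480 bp. Of these, 67.4% (63.4 to 71.1) also overlapped an H3K27ac region of ectoderm, the tissue that carried their H3K27me3. WT ectoderm Ep300 was found in 3.16% of the 792 members, against 8.60% (6.56 to 11.2) of the reverse regions, and WT endoderm Ep300 in 12.5% of the members, against 7.37% (5.50 to 9.81). Foxi2 of stage 10.5 was found in 3.66% of the members, against 7.54% (5.65 to 10.0), and Sox3 of stage 10.5 in 7.70%, against 13.5% (11.0 to 16.6). Over all endoderm H3K27me3 regions these shares were 2.89%, 11.9%, 3.38% and 10.8%, in the order given. The shares over all 29268 ectoderm H3K27me3 regions were not computed. A contrast between the rules and one between the H3K27me3 lists they start from thus cannot be told apart.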
